A study of Arabidopsis thaliana with 14 samples.

Results

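The SWEET genes encode membrane proteins that let sugars cross a membrane down their gradient, in either direction. The members described here were all probe sets paired with exactly 1 gene whose symbol is SWEET followed by a digit, which gave 14 genes, each with 1 probe set, of 22810 probe sets on the array. They are SWEET1 to SWEET4, SWEET6 to SWEET11, SWEET13, SWEET14, SWEET16 and SWEET17. The reference gene table lists 17 genes of the family, and SWEET12 was not analysed here. SWEET5 and SWEET15 carry the symbols AtVEX1 and SAG29 in the array's probe table, so they fell outside the rule and are described only as relatives. Each of the 14 probe set names ends in _at, the suffix Affymetrix uses for a probe set designed to a single transcript, and signal from RNA of a close relative was not tested.

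Affymetrix expression arrays measured root RNA of Arabidopsis thaliana seedlings (ecotype Columbia, whole roots). Seedlings grew for 5 days on standard medium, which held Fe(III)-EDTA as its iron source and 1% sucrose, and were then moved to a medium in which the iron salt was replaced by 0.3 mM Ferrozine, which chelates ferrous iron. Roots were harvested after 3, 6, 12, 24, 48 and 72 h without iron, and the control group was moved to fresh standard medium for 3 h. Each of the 7 groups had 2 arrays from 2 biological replicates, and a replicate pooled about 320 roots. The control was handled like the 3 h group, and no control was matched to the later times. The labels place all harvests on the sixth day after 5 days of growth, which cannot hold for 48 and 72 h, so the age of those roots is not settled.

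Signal is a linear intensity for each probe set, with a median of 84.5 to 94.9 on the 14 arrays. The 4 arrays of 48 and 72 h stood apart from the 10 others. All 18 probe sets of the hybridisation spike-ins were lower on each of these 4 arrays than on each of the other 10, with a geometric mean per array of 378 to 440 against 2172 to 3232. Any test that sets 48 or 72 h against an earlier group therefore also sets these 2 array sets against each other, and the effects of time and array set cannot be told apart there. Root hair markers were well measured on these arrays, with signals of 81.5 to 1966 for EXPA18 and 103 to 1379 for EXPA7, and so was the endodermis marker SGN3 at 424 to 717. Of the phloem markers, only OPS had a probe set paired with 1 gene, and its signal was 5.12 to 54.8, below the filter on low signal.

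As background, the family falls into 4 clades. Clade I (SWEET1 to SWEET3) and clade II (SWEET4 to SWEET8) move mainly hexoses, clade III (SWEET9 to SWEET15) mainly sucrose, and clade IV (SWEET16 and SWEET17) sits in the vacuole membrane. In leaves, SWEET11 acts together with SWEET12 to release sucrose from phloem parenchyma cells before it is loaded into the phloem. In roots, SWEET2 moves glucose across the vacuole membrane and limits the loss of sugar from the root, and SWEET17 moves fructose across the vacuole membrane.

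Comparisons were tested with limma on log2(signal + 16), with all 14 arrays in 1 fit. Fold changes are on this scale, which understates changes at low signal. Probe sets in the lowest 40% by mean over all 14 arrays, those under a level of 49.6 in signal, were left out, and 13648 were tested. A probe set was called at a Benjamini-Hochberg adjusted p under 0.05 over all of these. Of the 14 members, 6 were tested (SWEET2, SWEET3, SWEET11, SWEET13, SWEET16 and SWEET17) and 8 were below the filter. The members nearest to it were SWEET13, with a level of 55.5 just inside, and SWEET1, with 43.9 just outside. Both the members and the lists below were chosen with earlier results of these data known.

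SWEET11 (AT3G48740, chromosome 3) fell over the course. Its signal was 3352 and 1542 on the arrays of standard medium, and 3163 and 1965 at 3 h. It was 1191 and 1134 at 6 h, 701 and 1131 at 12 h, and 755 and 394 at 24 h. At 48 h it was 42.5 and 76.4, and at 72 h 37.9 and 53.9. Both arrays of 6, 12 and 24 h lay below both standard arrays and both 3 h arrays, and the 4 arrays of 48 and 72 h lay below all others. The lowest of the 10 earlier arrays was 5.15 times the highest of the 4 later ones.

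**Figure D1:**
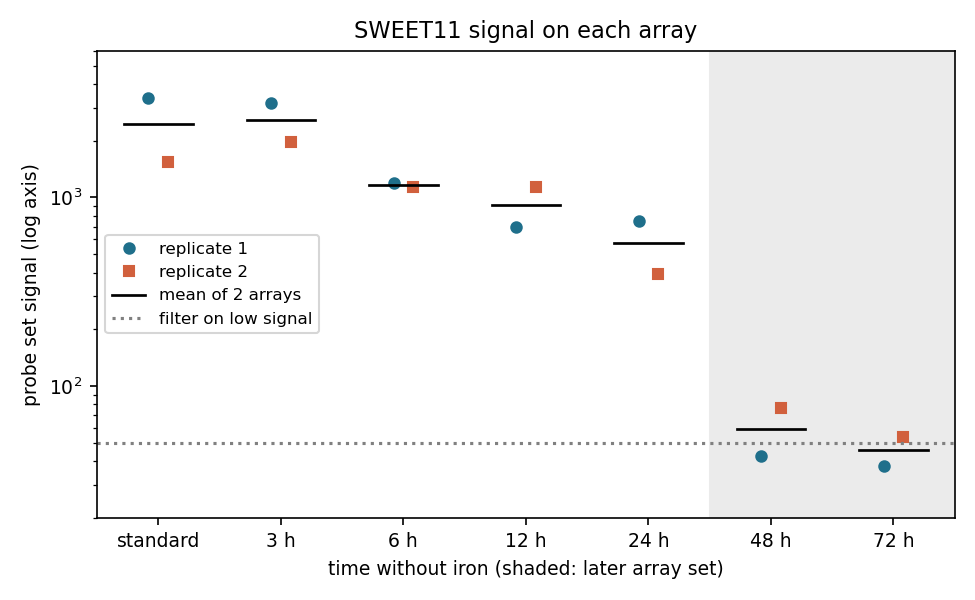
SWEET11 signal (log axis) on each of the 14 arrays by time without iron, with circles for replicate 1, squares for replicate 2, black bars for the mean of 2 arrays and a dotted line at the filter level of 49.6. The shaded arrays of 48 and 72 h lie between 37.9 and 76.4, below every earlier array.

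The order of the group means was 2564 ± 847 at 3 h (mean ± SD, n = 2), 2447 ± 1280 on standard medium, 1163 ± 39.9 at 6 h, 916 ± 304 at 12 h, 574 ± 255 at 24 h, 59.4 ± 24.0 at 48 h and 45.9 ± 11.4 at 72 h. Replicates differed most on standard medium, by 2.17 times, and least at 6 h, by 1.05 times. Replicate 1 was the higher array on standard medium and at 3, 6 and 24 h and the lower one at 12, 48 and 72 h. With whole roots, fewer cells that express a gene and less RNA per cell cannot be told apart.

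Against standard medium, SWEET11 was lower by the test from 12 h onward. The log2 fold change was 0.13 ± 0.34 (SE) at 3 h, with an adjusted p of 0.970 in limma. At 6 h it was −0.96, with a 95% interval of −1.67 to −0.25 and an adjusted p of 0.247, so this difference did not pass over all probe sets. At 12 h it was −1.34 ± 0.34 (adjusted p = 0.0364 in limma) and at 24 h −2.03 ± 0.34 (adjusted p = 0.000914). The ratio of the mean signals of standard medium and 24 h was 4.26. At 48 and 72 h the values were −4.96 ± 0.34 and −5.22 ± 0.34 (limma adjusted p = 1.04e-09 and 3.10e-10). The 72 h signals lie around the filter level of 49.6, so the size of this fall depends on the pseudocount, with −5.62 for a pseudocount of 1 and −4.42 for 64. Among the 13648 tested probe sets, the log2 fold change of SWEET11 had rank 63 from the lowest at 12 h, rank 15 at 24 h and rank 5 at both 48 and 72 h.

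The call at 12 h rested on single arrays and on settings of the test. Without standard replicate 1, the array with the higher signal, the log2 fold change at 12 h was −0.78 (adjusted p = 0.434 in limma), and SWEET3, in the other direction, was then the 1 member called. Leaving out replicate 1 of 12 h gave −0.998 (adjusted p = 0.256). The call also ended with a pseudocount of 1 and, at an unchanged value, with no filter, no trend or a robust prior (adjusted p = 0.0620 to 0.129). At 24 h the fold change ran from −2.58 to −1.47 as each array was left out in turn, and the adjusted p from 0.000337 to 0.0452, so that call held each time.

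**Figure D2:**
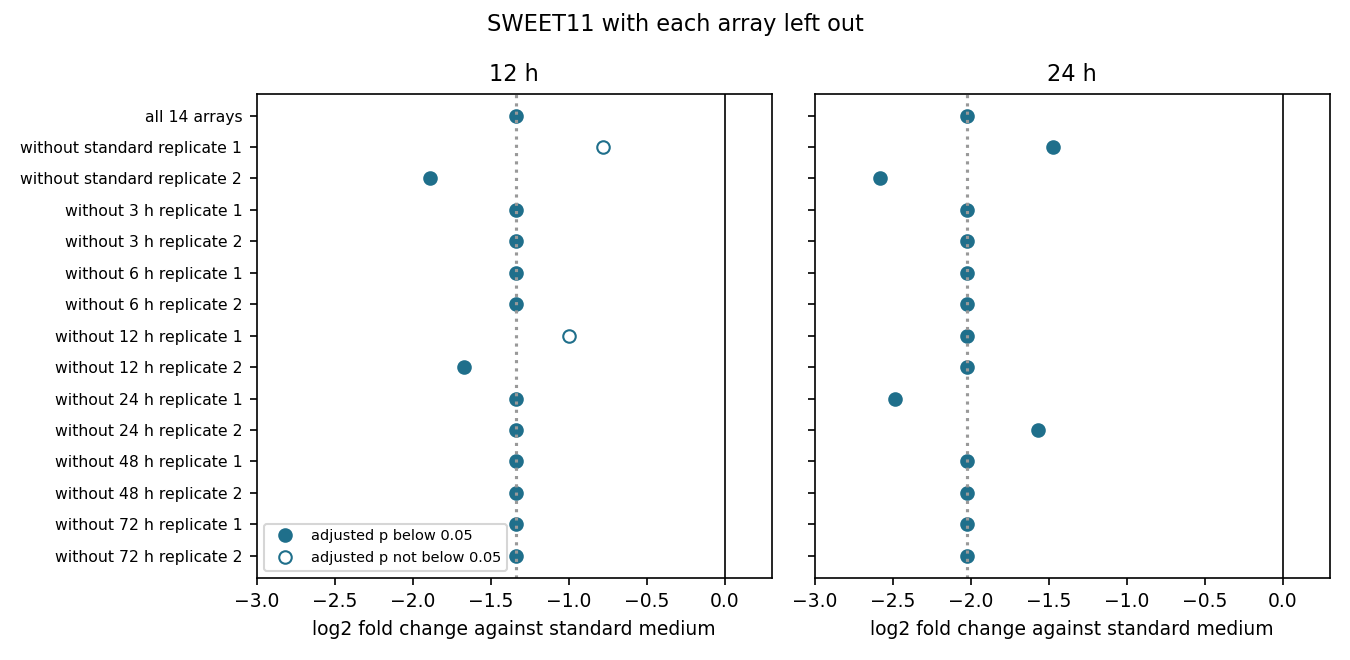
SWEET11 log2 fold change against standard medium at 12 h (left) and 24 h (right) with all 14 arrays and with each array left out in turn. Filled points have an adjusted p below 0.05, open points do not, and the dotted line marks the value with all arrays. At 12 h the 2 open points are those without standard replicate 1 (−0.78) and without replicate 1 of 12 h (−0.998). All points of the 24 h panel are filled.

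Comparisons along the course that leave out the control gave the same direction for SWEET11. From 3 h to 24 h, within the 10 earlier arrays, it fell by 2.16 on the log2 scale (SE 0.34, adjusted p = 0.000619 in limma), rank 6 from the lowest of the 13648 tested probe sets. SWEET11 was the only member of the 6 called in this comparison, in which 2% of all tested probe sets were called and 0.989% were called lower. In a fit of the 10 earlier arrays alone, the changes of SWEET11 at 12 h (adjusted p = 0.0448), at 24 h (0.00108) and from 3 h to 24 h (0.000767) were all called, where 1.69%, 2.66% and 1.44% of all tested probe sets were. Neighbouring times within the earlier arrays were not separated by the test. The values for SWEET11 were −1.09 from 3 h to 6 h (adjusted p = 0.347), −0.38 from 6 h to 12 h (0.903) and −0.69 from 12 h to 24 h (0.684). Over all tested probe sets 0.22%, 0.044% and 0.374% were called in these steps. The step from 24 h to 48 h, which crosses the array sets, was −2.93 ± 0.34 (adjusted p = 2.61e-06). From 48 h to 72 h, within the later arrays, the value was −0.26, with a 95% interval of −0.97 to 0.45 (adjusted p = 1).

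The markers tested for other cell types differed in their course. They were 2 of 5 listed genes for root hairs, 2 of 4 for green tissue, 1 of 6 for endodermis and 1 of 4 for dividing cells. Listed markers of xylem, pericycle and root cap had no probe set paired with 1 gene. The courses below are thus those of single genes. EXPA18 and EXPA7, the root hair markers, had values of −0.95 and −0.77 at 3 h, where SWEET11 was at 0.13, and neither was called (limma adjusted p = 0.152 and 0.316). EXPA18 was called lower from 6 h onward (−1.06, adjusted p = 0.0144) and EXPA7, at −0.89 and not called at 6 h, from 12 h onward. Their values were −1.13 and −0.91 at 12 h, −1.39 and −0.86 at 24 h, and −3.88 and −3.07 at 72 h. RCA and LHCB4.1, which mark green tissue, had values of 0.42 and 0.32 at 24 h and were not called then. Both were called at 48 h (−2.33 and −1.88) and at 72 h (−2.70 and −2.17). Between 3 h and 24 h, where SWEET11 fell by 2.16, the values of EXPA18 and EXPA7 were −0.44 and −0.08 and those of RCA and LHCB4.1 were 0.16 and 0.26, none of them called. MCM7, a marker of dividing cells, stood between −0.20 and 0.35 at all 6 times and was not called. SGN3, the endodermis marker, stood between −0.29 and 0.38 against standard medium and was not called there, but from 24 h to 48 h it was 0.48 higher (adjusted p = 0.0329). The part of these cell types in the fall of SWEET11 was not tested.

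Over the family, 0 of the 6 tested members were called at 3 h and 0 at 6 h in limma, with 0 and 1 of them at an unadjusted p under 0.05. The share called among all 13648 tested probe sets was 0.022% at 3 h and 0.945% at 6 h. At 12 h and at 24 h SWEET11 was the 1 member called, and it was lower. Over all tested probe sets, 2.63% were called and 1.56% were called lower at 12 h, and 3.62% were called and 2.01% were called lower at 24 h. At 48 h and 72 h 2 members were called, SWEET3 and SWEET11, both lower. Over all tested probe sets, 31.4% were called and 15.6% were called lower at 48 h, and 35.9% and 17.6% at 72 h. The median log2 fold change of the 6 members was 0.08, 0.02, −0.11, −0.04, −0.63 and −0.41 from 3 h to 72 h, beside 0.01, 0.02, 0.03, 0.02, 0.06 and 0.07 over all tested probe sets. These counts and medians cover only members that passed the filter, which used the mean over all 14 arrays, 10 of them earlier ones. SWEET3, at 8.98 to 27.8 on the later arrays, passed through its earlier signals. SWEET14, highest on the later arrays, was left out, and with no filter it was called higher at 72 h (limma adjusted p = 0.0229). From 24 h to 48 h SWEET3 and SWEET11 were called, where 23.7% of all tested probe sets were called and 12.7% were called lower. From 48 h to 72 h no member was called and none had an unadjusted p under 0.05 in limma, with 0.0147% called over all.

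**Figure D3:**
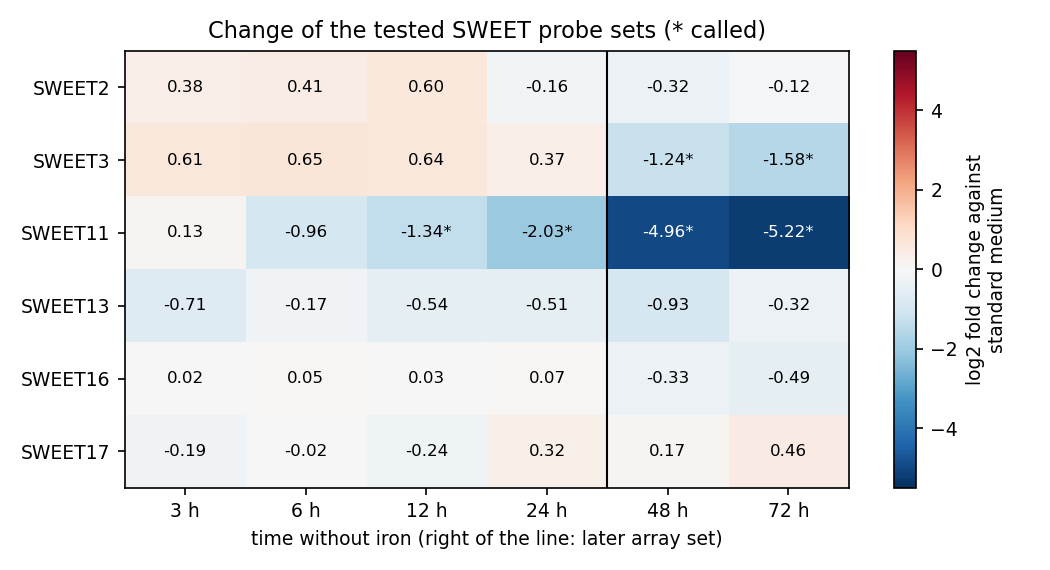
Log2 fold change against standard medium of the 6 tested members (rows) at each time without iron (columns), on the log2(signal + 16) scale. Asterisks mark calls at an adjusted p under 0.05, which are SWEET11 from 12 h onward and SWEET3 at 48 and 72 h, and the vertical line separates the later array set.

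The moderated F test in limma asked whether a member changed at any time against standard medium. It called 3 of the 6, SWEET11 (adjusted p = 8.32e-11), SWEET3 (0.000149) and SWEET2 (0.00533), where 38.8% of all tested probe sets were called. SWEET17 (adjusted p = 0.102), SWEET16 (0.182) and SWEET13 (0.366) did not pass. SWEET17 passed without replicate 2 of 3 h (adjusted p = 0.0429), and SWEET14 passed with no filter (0.00812). In the 10 earlier arrays alone the F test called SWEET11 (adjusted p = 0.00157) and not SWEET2 (0.297) or SWEET3 (0.912), with 2.37% called over all.

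In clade I, SWEET3 (AT5G53190) was low on all later arrays. Its signal was 151 and 35.7 on standard medium, 165 and 94.1 at 3 h, 126 and 133 at 6 h, 134 and 125 at 12 h, and 103 and 106 at 24 h. The 48 h arrays gave 19.5 and 27.8 and the 72 h arrays 8.98 and 22.6. These later signals lie under the filter level of 49.6, and at such signals low expression cannot be separated from background. Standard replicate 2 lay near the later arrays, and all other earlier arrays were at least 94.1. Up to 24 h the log2 fold change was 0.37 to 0.65 and was not called, then it was −1.24 ± 0.40 at 48 h (adjusted p = 0.0224 in limma) and −1.58 ± 0.40 at 72 h (0.00402). These sizes depend on the pseudocount, with −1.62 at 48 h and −2.28 at 72 h for a pseudocount of 1, and −0.74 and −0.88 for 64. Without standard replicate 1 the value at 12 h was 1.49 and was called higher (adjusted p = 0.0463). In the same fit the value at 48 h was −0.39 (adjusted p = 0.484) and that at 72 h −0.74 (0.148), and both calls ended. Without replicate 1 or replicate 2 of 48 h the call at 48 h ended too (adjusted p = 0.140 and 0.0548), as did that at 72 h without replicate 1 of 72 h (0.0635). From 24 h to 48 h, across the array sets and without the control, SWEET3 fell by 1.61 (SE 0.40, adjusted p = 0.00555), with −2.12 for a pseudocount of 1 and −0.94 for 64. Without replicate 1 of 48 h that value was −1.46 (adjusted p = 0.0591).

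SWEET2 (AT3G14770), the glucose transporter of the root vacuole, had its highest signals at 3 to 12 h. It was at 320 and 309 on standard medium, 451 and 378 at 3 h, 393 and 455 at 6 h, and 402 and 584 at 12 h. The signals were then 323 and 243 at 24 h, 255 and 242 at 48 h, and 269 and 308 at 72 h. The 6 arrays of 3 to 12 h all lay above the 8 others. At single times the differences from standard medium did not pass over all probe sets. The largest was 0.60 at 12 h, with a 95% interval of 0.17 to 1.03 and an adjusted p of 0.158 in limma, and from 12 h to 24 h the value was −0.76, with an interval of −1.19 to −0.33 and an adjusted p of 0.181. With adjustment over the family of comparisons that last step was called (adjusted p = 0.0450). SWEET1 (AT1G21460), a glucose transporter in the plasma membrane, was below the filter with signals of 20.1 to 71.1.

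**Figure D4:**
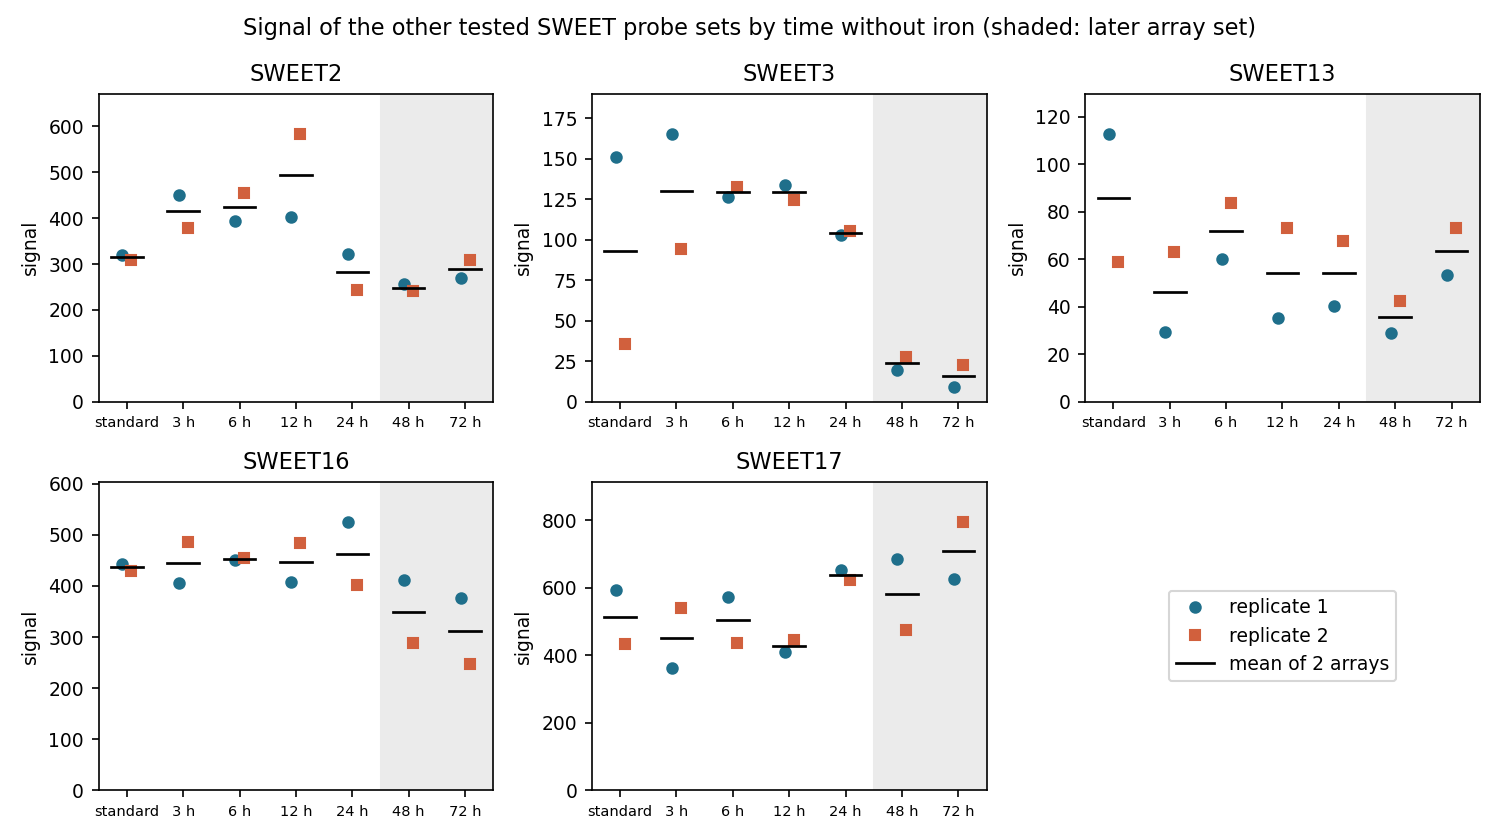
Linear signal of SWEET2, SWEET3, SWEET13, SWEET16 and SWEET17 on each array by time without iron, with circles for replicate 1, squares for replicate 2 and bars for the mean of 2 arrays. SWEET2 is higher on the 6 arrays of 3 to 12 h (378 to 584) than on the 8 others, and SWEET3 is at most 27.8 on the 4 shaded arrays of 48 and 72 h.

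In clade IV, the vacuolar transporters SWEET16 (AT3G16690) and SWEET17 (AT4G15920) were not called at any time with all 14 arrays and the settings above. SWEET16 was at 444 and 429 on standard medium and between 402 and 525 on the other 8 earlier arrays. The later arrays gave 411 and 288 at 48 h, then 377 and 247 at 72 h. Its log2 fold change at 72 h was −0.49, with a 95% interval of −0.95 to −0.04 and an adjusted p of 0.0844 in limma, and the value was within 0.07 of 0 at each time up to 24 h. At 72 h it was called lower without replicate 1 of 72 h (−0.78, adjusted p = 0.0292) and with quantile normalization (−0.61, 0.0356). At 24 h the interval for SWEET16 was −0.38 to 0.53. Like those of SWEET2, SWEET3, SWEET13 and SWEET17, it did not reach the change of SWEET11 at that time. SWEET17 was at 592 and 433 on standard medium, between 360 and 572 at 3 to 12 h, and at 651 and 622 at 24 h. The later arrays gave 685 and 475 at 48 h, then 626 and 794 at 72 h. The change of SWEET17 at 72 h was 0.46, with an interval of −0.01 to 0.94 and an adjusted p of 0.118, and from 3 h to 24 h it was 0.51 (adjusted p = 0.399). Both arrays of 24 h and both of 72 h were above both standard arrays, while those of 48 h lay on either side of the higher standard array.

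Clade III holds SWEET11 and 4 other members. SWEET13 (AT5G50800), which is known to move sucrose and gibberellin, was at 113 and 58.7 on standard medium, 29.2 and 63.2 at 3 h, and between 35.1 and 83.5 at 6 to 24 h. The later arrays gave 29.1 and 42.6 at 48 h, then 53.4 and 73.3 at 72 h. Its groups overlapped at each time except 48 h, where the log2 fold change was −0.93 (95% interval −1.72 to −0.15, adjusted p = 0.0648 in limma). That difference was called without standard replicate 2 (−1.33, adjusted p = 0.0307) and, at −0.93, without replicate 1 of 12 h (0.0499), in the 4 arrays compared alone (0.0466) and with the replicate number as a block (0.0481). SWEET10 (AT5G50790), its neighbour on chromosome 5 with 0 annotated genes between them, was below the filter with signals of 4.61 to 40.7.

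SWEET14 (AT4G25010), a close relative of SWEET13, was also below the filter and so was not part of the test. Its signal was between 1.08 and 22.0 on the 10 earlier arrays, 29.5 and 28.5 at 48 h, and 45.5 and 52.8 at 72 h. All 4 later arrays were above all earlier ones. With no filter, when 22746 probe sets were tested, SWEET14 was 1.17 ± 0.35 higher at 72 h (adjusted p = 0.0229 in limma, where 21.5% of all probe sets were called). It was not called at 48 h (0.64, adjusted p = 0.236). SWEET9 (AT2G39060), the transporter needed for nectar secretion in flowers, had signals of 4.19 to 50.0.

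The 4 members of clade II were low on all arrays. SWEET4 (AT3G28007) was at 2.61 to 20.3, SWEET6 (AT1G66770) at 7.56 to 39.0, and SWEET7 (AT4G10850) at 1.09 to 28.9. SWEET8 (AT5G40260), which is needed for the pollen wall, was at 2.90 to 37.5. With no filter, none of these 4 members, nor SWEET1, SWEET9 or SWEET10, was called by the F test, with adjusted p of 0.419 to 0.858, while 23% of all 22746 probe sets were. At such signals the arrays cannot separate low expression from background.

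**Figure D5:**
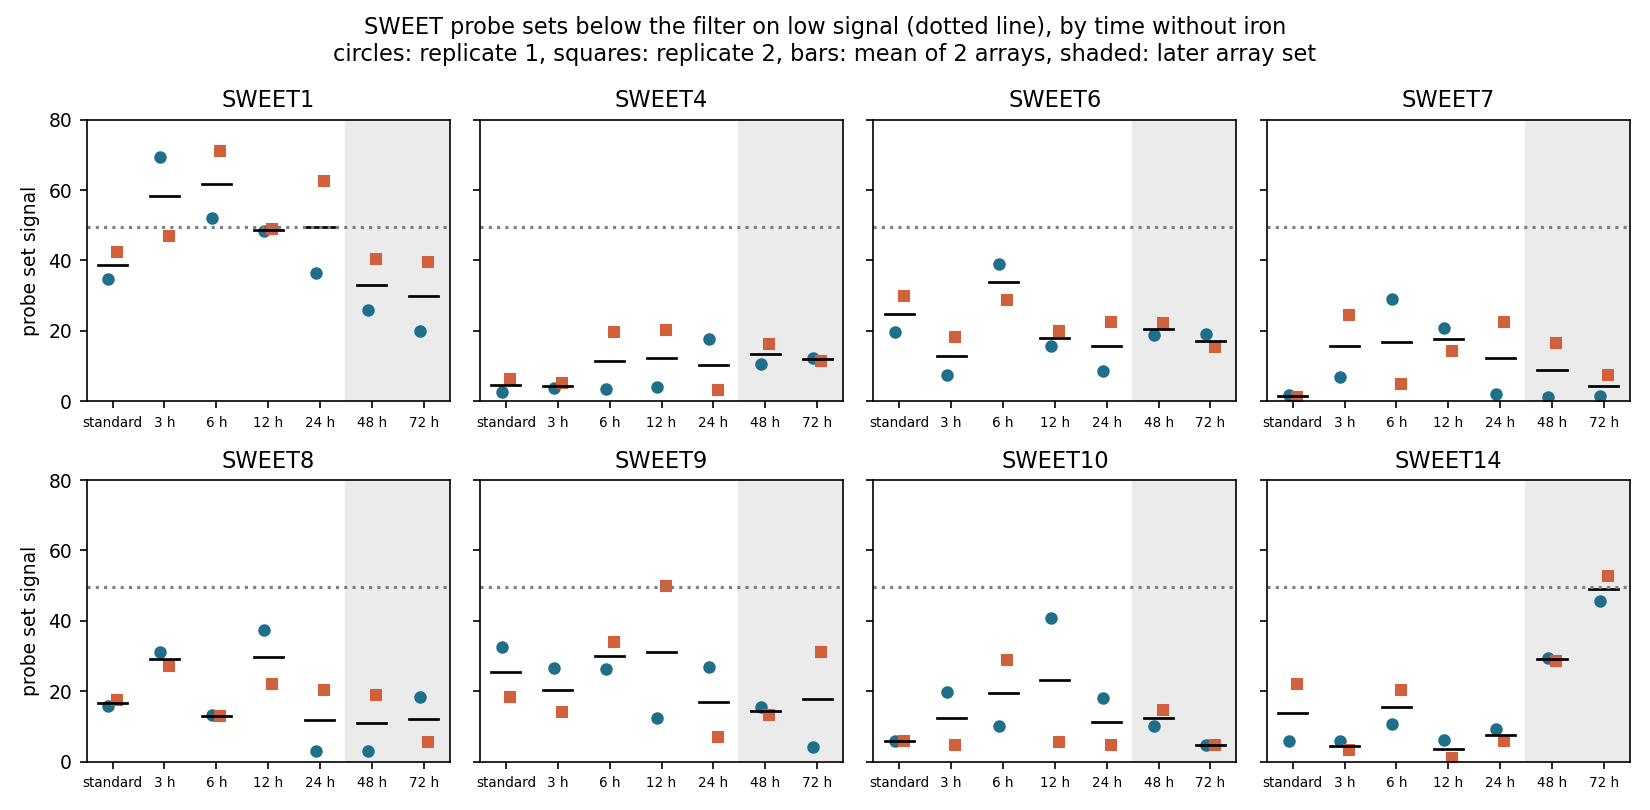
Linear signal of the 8 members below the filter on low signal on each array by time without iron, on a shared axis with a dotted line at the filter level of 49.6. Circles are replicate 1, squares replicate 2 and bars the mean of 2 arrays, and SWEET14 alone has all 4 shaded later arrays (28.5 to 52.8) above its earlier ones.

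Of the family genes outside the rule, SAG29 was low on the earlier arrays and higher on the later ones, and AtVEX1 was low on all. SAG29 (SWEET15, AT5G13170), a clade III gene known from leaf senescence and seed filling, was at 29.4 and 2.31 on standard medium and between 2.32 and 44.4 at 3 to 24 h. The later arrays gave 71.0 and 75.1 at 48 h, then 135 and 147 at 72 h. With no filter SAG29 was 1.63 ± 0.50 higher at 48 h (adjusted p = 0.0313 in limma) and 2.44 ± 0.50 higher at 72 h (adjusted p = 0.00195), across the array sets. Over all 22746 probe sets 18.5% were called at 48 h. AtVEX1 (SWEET5, AT5G62850), known from the pollen vegetative cell, was at 1.09 to 49.5 and was not called at any time with no filter.

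Other genes of sugar movement and use were taken from lists. Of 25 other sugar transporter genes, 6 had a probe set paired with 1 gene and 3 were tested, and 0 were called at any time against standard medium. Over all tested probe sets, 0.022% to 3.62% were called at the times from 3 to 24 h, 31.4% at 48 h and 35.9% at 72 h. TST1 and TST2, which load sugars into the vacuole, stood between −0.42 and −0.10 and between −0.27 and 0.20, and SFP1, a sugar transporter family gene, between −0.16 and 0.29. Of 15 genes listed under sucrose cleavage, 2 were tested and 0 were called at 3 to 24 h. With so few genes tested, these counts say little about either list. VI1 (AT1G62660), a vacuolar invertase, was lower at 48 h (−1.58) and 72 h (−2.05). CWINV6 (AT5G11920), of the cell wall invertase family by name, was higher at 48 h (2.55) and 72 h (2.32). Both changes are across the array sets. Whether the product of CWINV6 cleaves sucrose was not tested.

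The genes whose pattern was most like that of SWEET11 were ranked by Pearson correlation of log2(signal + 16) among 7355 other tested probe sets paired with 1 gene. Over all 14 arrays these were AT5G05600 (r = 0.981), AT2G30930 (0.978), AT4G37550 (0.978), AT5G64100 (0.975) and the glycosyltransferase gene GT72B1 (0.971). All 14 arrays share the split into 2 array sets, which moves such correlations for any gene that differs between the sets. Over the 10 earlier arrays the 5 genes were others, namely AT3G11930 (0.947), AT2G23680 (0.941), AT5G48430 (0.935), AT5G12340 (0.924) and AT1G05575 (0.915). AT5G48430 had a mean signal of 5017 on standard medium and of 1010 at 24 h (log2 fold change −2.38). The falls at 24 h were smaller for AT3G11930 (−1.05), AT5G12340 (−1.10), AT2G23680 (−0.91) and AT1G05575 (−0.49). AT2G23680 and AT1G05575 were not called there (limma adjusted p = 0.0713 and 0.384). All 5 genes were picked by their likeness on these same arrays, so the values are descriptions only. Within the family, the correlation with SWEET11 over the 14 arrays was 0.857 for SWEET3, 0.666 for SWEET16, 0.636 for SWEET2, 0.282 for SWEET13 and −0.57 for SWEET17. Over the 10 earlier arrays it was 0.145 for SWEET3, 0.0246 for SWEET16, 0.297 for SWEET2, 0.148 for SWEET13 and −0.32 for SWEET17.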

How the data were processed

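The authors deposited an intensity for each probe set, linear in scale. It comes from MAS5, per the submitters' processing notes, and the version is not given in the sources used here. Arrays had been scaled to the same trimmed mean (2% trimmed from each end), and this scaling was kept. All 14 columns were matched to samples. The platform's probe table paired 13513 probe sets with 1 gene, 503 with several and 8794 with none, and the reference gene table (TAIR10.1) supplied locus names. The 64 control probe sets were left out. Tests used limma 3.58.1 (R 4.3.3) on log2(signal + 16), with 1 mean per group, 7 residual degrees of freedom and a mean-dependent prior variance (trend). The fit was tested on simulated data. All SWEET probe sets are named, as are the 5 genes most like SWEET11 over each set of arrays. The members, lists and tests were chosen with earlier results of these data known. P-values rest on the spread between the 2 arrays of a group, pooled over the 7 groups and moderated by the prior from all tested probe sets. They do not measure the spread of only the groups compared, and the number of arrays limits the precision. Alternatives were other normalizations, pseudocounts of 1 and 64, other filters and priors, fits of fewer arrays, the replicate number as a block, a wider adjustment and leaving out each array.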

Additional observations from a re-analysis of the deposited data

Results flagged for a closer look

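The changes of SWEET11 and SWEET3 against standard medium differed between 24 h and 48 h by the direct test of 48 h against 24 h in limma. The difference was −2.93 for SWEET11 (adjusted p = 2.61e-06) and −1.61 for SWEET3 (adjusted p = 0.00555), with both 48 h arrays below both 24 h arrays in each case. Both comparisons cross the array sets, and time and array set cannot be told apart.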

How the results depend on the processing

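SWEET11 kept its direction and its call at 24, 48 and 72 h, from 3 h to 24 h and from 24 h to 48 h under every alternative run. At 24 h its log2 fold change ran from −2.06 to −1.94 over the settings that keep all arrays of the comparison and from −2.58 to −1.47 without each array in turn. At 48 and 72 h those settings gave −5.29 to −4.26 and −5.62 to −4.42. The ranges without each array were −5.52 to −4.41 at 48 h, −5.78 to −4.67 at 72 h, −1.52 to −0.40 at 6 h and −1.89 to −0.78 at 12 h. At 3 h, where SWEET11 was not called, the range was −0.42 to 0.69, and the sign turned without standard replicate 2 (−0.42) and without replicate 1 of 3 h (−0.21). The call of SWEET11 at 12 h ended with a pseudocount of 1 (−1.35, adjusted p = 0.0620 in limma), and with a value of −1.34 it ended with no filter (0.0931), no trend (0.111) and a robust prior (0.129). Under these 4 settings the count of members called at 12 h was 0, against 1, and without single arrays it was 0 to 1. Without standard replicate 1 the 1 member was SWEET3, which was higher, in place of SWEET11. The count at 48 h was 1, SWEET11, with quantile normalization, no filter, the lowest 60% removed and adjustment over the family of comparisons, and 1 to 3 without single arrays, with SWEET13 as the third. In the 4 arrays compared alone it was 2, with SWEET13 in place of SWEET3. The count at 72 h was 1 with the lowest 60% removed and in the 4 arrays compared alone, 3 with no filter (with SWEET14) and with quantile normalization (with SWEET16), and 1 to 2 without single arrays, where SWEET16 took the place of SWEET3 without replicate 1 of 72 h. From 24 h to 48 h it was 1 with the lowest 60% removed and 1 to 2 without single arrays. SWEET3 was not among the probe sets tested with the stricter filter, or in the 4 arrays compared alone at 48 and at 72 h, since its level fell below the filter there. The count of members changed at any time was 2 to 4, against 3, over the alternatives of the F test that keep all groups. In the earlier arrays alone, which leave out 48 and 72 h, SWEET11 was the only member called by the F test. The call of SWEET3 at 48 h ended with quantile normalization (−1.02, adjusted p = 0.0687), no filter (0.0593) and adjustment over the family (0.0503). The cause of these changes was not tested. With the replicate number as a block, SWEET11 at 24 h stayed at −2.03 (adjusted p = 0.000789), and at 48 h 3 members were called, SWEET13 being added. The differences between replicates 1 and 2 correlated by −0.14 to 0.27 between groups, and 4 of 21 pairs of groups were over 0.1. With a single difference per group, these values cannot settle whether the replicate numbers pair the samples. Signal near background limits what can be said of the 8 members below the filter.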
